A study of Mus musculus with 12 samples.

Results

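The isoleucine transfer RNAs (tRNA-Ile) were examined in a pseudouridine profiling experiment on mouse hematopoietic stem and progenitor cells, from which all blood cells arise. The members are all rows of the deposited tables whose entry name starts with tRNA-Ile, which gave 16 of 404 tRNA entries and 1107 of 27960 base rows. Entries with identical values in all libraries were counted once, leaving 7 of 213 distinct entries and 429 of 14012 base rows. Of the 7, 4 carry the anticodon AAT and 3 the anticodon TAT, and they stand for 11 and 5 entries. The cells came from young and from old mice, both wild type, and small RNA under 200 nt from all of them was demethylated with wild-type and mutant AlkB before labelling. Each age had 3 libraries treated with CMC, a carbodiimide that stays on pseudouridine and halts reverse transcriptase, and 3 carried through the same BEU buffer without CMC, 12 libraries in 4 groups. The labels give no ages beyond young and old. They do not state whether the 3 libraries of a group stem from different animals. All p-values here reflect the spread among libraries, possibly only technical. Each fit draws that spread partly from its other sites or tRNAs, so a p-value does not measure the scatter at its own site alone. The tables hold tRNA alone, so the labelled cell type was not checked against marker genes.

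The stop rate is the share, in percent, of the reads over a base that end at it. No stop count lies below 1, so the stop rate at a base with few reads has a high floor. The rise is the CMC stop rate minus the BEU stop rate of the same age and replicate number, in percentage points. Coverage never exceeded 8015 reads at any base. Once a tRNA reached at least 7500 reads, called the ceiling here, stops from that point towards the 3′ end could be recorded far too low. How far varied between bases and libraries, and some rates at the ceiling were still high. Of the 213 tRNAs, 21 to 103 were at the ceiling in a BEU library and 0 to 56 in a CMC library. For tRNA-Ile this split the entries: AAT-1-1 and AAT-3-1 were at the ceiling in all 6 BEU libraries, and the other 5 entries stayed below it in all 12 libraries.

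Pseudouridine is an isomer of uridine that stabilises base stacking in tRNA. PUS1 is known to modify bases of the anticodon stem such as positions 27 and 28, PUS3 positions 38 and 39, and TRUB1 and PUS10 the T-loop positions 55 and, for PUS10, 54. In the minor isoleucine tRNA with anticodon UAU, yeast Pus1 also modifies positions 34 and 36 of the anticodon itself. The major isoleucine tRNA is encoded with A at position 34, which is deaminated to inosine, and A37 next to the anticodon is known to carry a threonylcarbamoyl group in both.

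The sequences of the TAT entries, read from the row names of the tables, show where the Ts stand on which their results turn. Capitals mark the anticodon and the Ts at positions 39, 54 and 55. Positions follow the usual tRNA numbering, in which an extra D-loop base is called 20a, so that a position above 20 lies 1 row further from the 5′ end of the entry.

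tRNA-Ile-TAT-2-1, rows 1 to 28: gctccagtggcgcaatcggttagcgcgc
tRNA-Ile-TAT-2-1, rows 32 to 76: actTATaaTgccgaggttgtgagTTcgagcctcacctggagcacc
tRNA-Ile-TAT-1-1, rows 32 to 76: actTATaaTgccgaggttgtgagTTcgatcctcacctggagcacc
tRNA-Ile-TAT-3-1, rows 56 to 75: tgagccccagtggaactacc

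The AAT tRNA has T at 27 and 30 and C at 39, whereas the TAT tRNA has C at 27 and T at 34, 36 and 39. AAT-3-1 and AAT-4-1 had the same base as AAT-1-1 in each of the 74 and 41 rows they share with it. AAT-2-1 differed from AAT-1-1 at 2 of 72 shared rows. From TAT-1-1 to TAT-2-1 the 1 difference over 73 shared rows was T60G, which gives the base of TAT-1-1, the row counted from its 5′ end and the base of TAT-2-1. No entry has a T at positions 28 or 38 in the rows analysed. TAT-3-1 has only 20 rows, of which 16 differ from TAT-2-1. Rows 29 to 31 of TAT-1-1 and TAT-2-1 (positions 28 to 30), rows 26 to 28 of AAT-2-1 and rows 25 and 26 of AAT-3-1 were not analysed here. Entries this alike share reads in an unknown way, so sites at the same position of 2 such entries are not independent. RefSeq's gene table for GRCm38.p6 lists 16 isoleucine tRNA genes, 15 of them for AAT and 8 on chromosome 13, but its names do not match those of the entries, so positions are given within the tRNA.

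CMC raised stops at 10 of 47 tested T sites of tRNA-Ile in young cells and at 13 of 47 in old cells, and the 10 were among the 13. A site was tested where coverage was at least 20 in all 12 libraries, and it was called when edgeR's quasi-likelihood test gave a p under 0.05, Benjamini-Hochberg adjusted over all T sites, all 3 pairs rose and their mean rise reached 10 points. The called shares, 21.3% and 27.7%, stand beside 18.8% of all 2189 tested T sites in young cells and 20.3% in old cells. By anticodon, 6 of 31 AAT sites were called at each age, and 4 of 16 TAT sites in young and 7 of 16 in old cells. The called AAT sites lie at positions 27, 30 and 55 of AAT-1-1 and AAT-3-1. Those of TAT lie at position 39 and in the T loop, with positions 47, 48 and 54 of TAT-1-1 in old cells alone. At the other 34 tested T sites the mean rise ranged from -7.08 to 7.81 points in young and from -3.98 to 9.59 points in old cells. Among A, C and G, CMC-dependent stops were called at 1 of 181 tested bases at each age, beside 0.368% of all such bases in young cells and 0.61% in old cells. Restricted to the 29 T sites that stayed below the ceiling in all libraries, 5 were called in young and 8 in old cells, beside 17.8% and 19.7% of all such T sites.

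**Figure D1:**
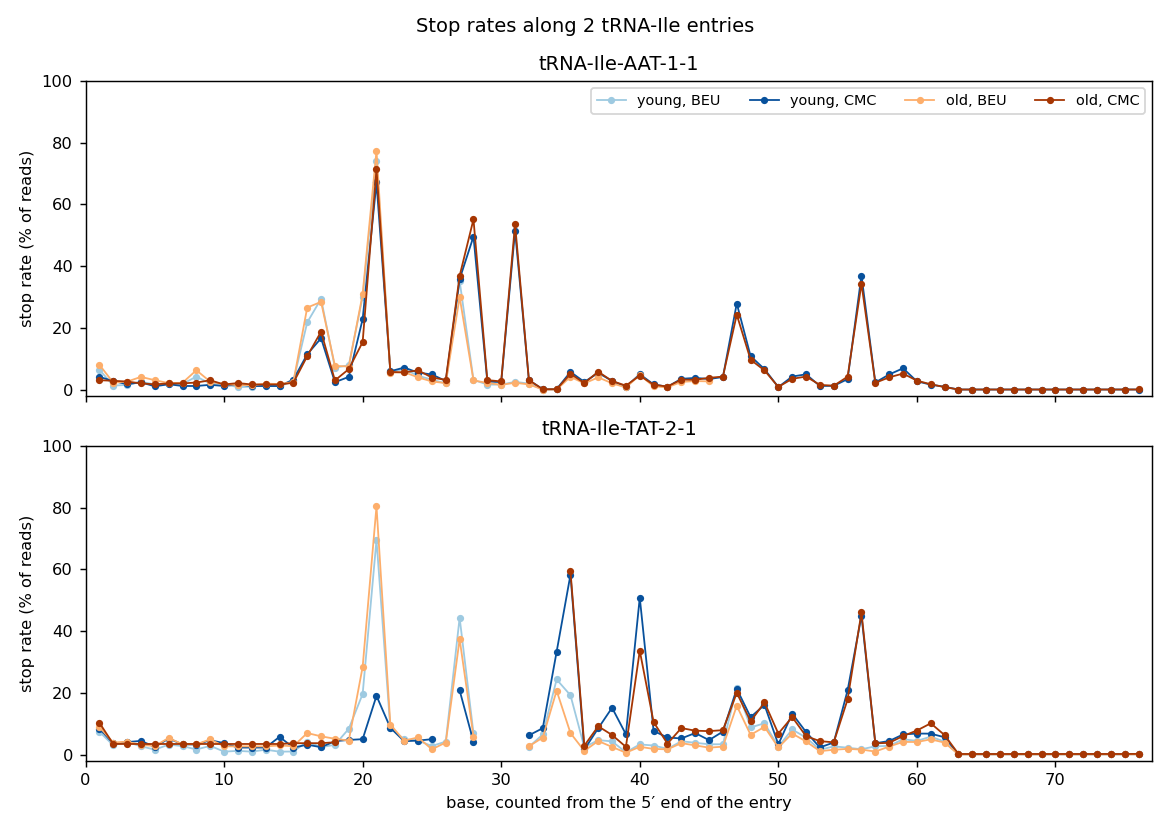
Mean stop rate (percent of reads) at each base of tRNA-Ile-AAT-1-1 and tRNA-Ile-TAT-2-1, counted from the 5′ end of the entry, in the 4 groups. Each point averages the libraries of a group with at least 20 reads and no ceiling at or before that base, so BEU points end where all 3 libraries reach the ceiling. The CMC lines stand apart from the BEU lines at rows 28 and 31 of AAT-1-1 and at rows 35, 40, 55 and 56 of TAT-2-1.

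The anticodon stem of the AAT tRNA held its largest rises, at T27 and T30. At T27 of AAT-3-1 the BEU stop rates were 7.87%, 7.53% and 7.99% in young and 9.16%, 8.46% and 7.74% in old cells. The CMC stop rates there were 68.6%, 72.2% and 70.4% in young and 71.6%, 77.6% and 74.4% in old cells, far above every BEU library. The rise was 62.6 ± 1.96 points in young and 66.1 ± 3.40 points in old cells (n = 3, SD), with edgeR's adjusted p of 3.97e-08 and 3.23e-08. T27 of AAT-1-1, which has the same bases and shares reads with AAT-3-1 in an unknown way, rose by 48.5 ± 1.13 and 53.2 ± 2.08 points, although 3 of its BEU libraries were at the ceiling. In the pairs below the ceiling, 1 of young and 2 of old cells, its rise was 47.9 and 53.7 points. There were 48 other tRNAs tested with a T at position 27, the known PUS1 site, whether at the ceiling or not. Their median rise was 26.5 points in young and 29.2 points in old cells, and the highest was 66.2 and 65.9 points. Of the 48, 1 stood above AAT-3-1 in young and 0 in old cells, and 4 and 2 stood above AAT-1-1, as a description of these libraries with no test. A rise at the ceiling can be recorded too low, and the ranking at T27 was not repeated below it.

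T30, near the middle of the same stem, rose about as much. At T30 of AAT-3-1 the BEU stop rate lay between 5.18% and 5.88% in all 6 libraries. The CMC stop rates were 59.3%, 58.9% and 60.0% in young and 59.3%, 63.2% and 58.7% in old cells, so the 6 CMC libraries lay within a narrow range and overlapped between the ages. The rise was 54.1 ± 0.596 points in young and 54.9 ± 2.65 points in old cells (n = 3, SD), and 50.6 ± 1.68 and 52.1 ± 2.58 points at T30 of AAT-1-1. Coverage was at the ceiling in 1 BEU library at T30 of AAT-3-1 and in 3 at T30 of AAT-1-1. In the pairs below it the rise was 54.1 points in young and 55.6 points in old cells in AAT-3-1, and 48.7 points (1 pair) and 52.1 points (2 pairs) in AAT-1-1. No T at position 30 was found outside the 4 AAT entries among the 185 distinct entries that could be numbered from their anticodon. Not all of the 185 have a row there, and position 30 of the TAT entries is among the rows not analysed. In the rows analysed, the rise at T30 has no counterpart at its position in other tRNAs. At T30 of AAT-2-1, with only 4 to 24 reads per CMC library, the rise was 25.2 ± 15.3 points in young and 21.3 ± 13.2 points in old cells, and it was not tested at the coverage minimum of 20. With no stop count below 1, the stop rate at so few reads cannot be low. How much of this rise is that floor was not tested.

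The anticodon loop of the AAT tRNA showed no called rise at positions 34, 36 or 37. At A34 of AAT-1-1, the base known to become inosine, the CMC stop rate lay between 5.14% and 6.31% in young and between 4.64% and 5.37% in old cells. In the BEU libraries below the ceiling at that base it was 5.12% in the 1 young library and 4.33% and 3.93% in the 2 old libraries. A37 of the same entry stopped 2.50% to 3.17% of reads in young and 2.20% to 3.32% in old CMC libraries. T36 had a rise of 3.43 ± 3.42 points in young and 3.11 ± 1.64 points in old cells in AAT-1-1, and of 0.645 ± 4.94 and 1.16 ± 3.70 points in AAT-3-1, with 4 and 2 libraries at the ceiling. C39, in the stem, which stands where other tRNAs carry the PUS3 target, had a rise of 4.95 ± 0.496 points in young and 1.54 ± 3.29 points in old cells and was not called, with 5 libraries at the ceiling.

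In the anticodon arm of the TAT tRNA the largest rises at T lay at T34, in the loop, and at T39, in the stem. At T39 of TAT-2-1, a known PUS3 position, the BEU stop rate ranged from 2.17% to 3.63%. The CMC stop rates were 52.7%, 46.04% and 53.8% in young cells and 32.7%, 37.5% and 30.8% in old cells, so that each old library lay below each young one. The rise was 47.6 ± 4.48 points in young and 31.1 ± 3.04 points in old cells (n = 3, SD), with edgeR's adjusted p of 6.45e-08 and 1.62e-07. Among 72 other tRNAs tested at T39, at the ceiling or not, the median rise was 24.0 points in young and 24.8 points in old cells. TAT-2-1 stood above all 72 in young cells, and 16 of the 72 stood above it in old cells. TAT-2-1 stayed below the ceiling, where others may not have, and the ranking at T39 was not repeated below it. The near-identical TAT-1-1 had rises of 45.9 ± 8.14 and 38.5 ± 7.57 points at T39, with CMC coverage down to 11 reads, and entered no test at the minimum of 20. With no coverage minimum it was called at both ages, with edgeR's adjusted p of 3.69e-07 and 6.88e-07. In that setting 16 of 94 T rows of tRNA-Ile were called in young cells, beside 17.9% of all 3129 T rows in the series. In old cells 22 of the 94 were called, beside 20.8% of the 3129.

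T34, the first base of the UAU anticodon, had coverage of only 10 to 120 reads in the CMC libraries of TAT-2-1 and so did not enter the CMC test. Its CMC stop rates were 52.9%, 58.3% and 70.0% in young and 55.9%, 78.6% and 62.9% in old cells. Its BEU stop rates were 20.0%, 19.9% and 17.8% in young and 6.55%, 6.18% and 8.20% in old cells, so CMC and BEU libraries did not overlap at either age. The rise was 41.2 ± 9.88 points in young and 58.8 ± 12.1 points in old cells (n = 3, SD). With no coverage minimum it was called at both ages, with edgeR's adjusted p of 0.000116 and 9.31e-07. T34 of TAT-1-1 rose by 27.4 ± 6.47 and 34.1 ± 14.6 points on 5 to 86 CMC reads, and was also called at both ages with no minimum. At so few reads the floor of 1 stop read can raise CMC rates. The fit with 1 subtracted from each count was run only at the minimum of 20, so it did not cover T34. For scale, 25 other tRNAs were tested at T34, at the ceiling or not, all at the coverage minimum of 20 that both TAT entries missed. Their highest rise was 3.996 points in young and 7.44 points in old cells. T36, the other anticodon base that yeast Pus1 modifies, rose by 5.09 ± 1.09 points in young and 4.27 ± 3.63 points in old cells in TAT-2-1, on CMC coverage down to 11 reads, and was not called with no coverage minimum. A37 beside it rose by 8.87 ± 8.85 and 6.51 ± 4.54 points and was not called either. The same floor applies at both bases.

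Few reads of CMC libraries reached the 5′ side of the TAT tRNA. The highest coverage of TAT-2-1 was 331 to 2213 reads in CMC libraries. It stood at 24 to 278 reads at T39, 10 to 120 at T34 and 2 to 24 at C27. In BEU libraries 188 to 1046 reads still covered C27. Stops 5′ of the anticodon of the TAT tRNA were therefore not measurable with CMC at this depth. Of all tRNA-Ile rows, 39 had a 6-pair mean rise of at least 10 points but too few reads for the test, with lowest coverages of 2 to 11 reads, and only 9 of these were T. At such coverages the floor of 1 stop read can raise a stop rate by itself.

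**Figure D2:**
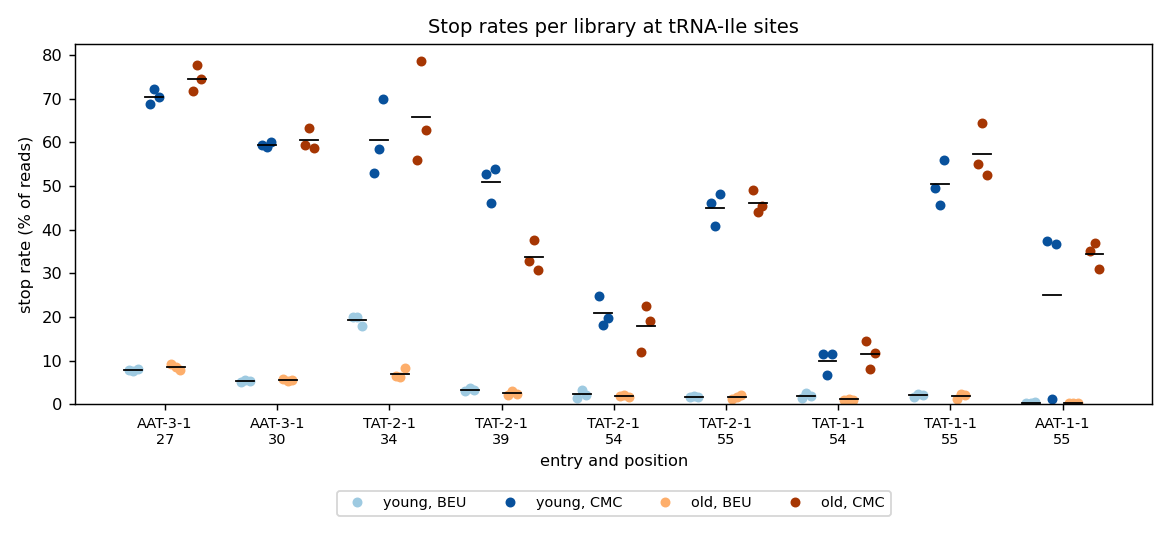
Stop rate (percent of reads) of each library at 9 T sites of tRNA-Ile, by entry and position. Points are single libraries, black lines are means of 3. BEU points lie below the CMC points of the same age at each site. At T55 of AAT-1-1, 1 young CMC library stands at 1.18%, where its coverage was at the ceiling. T34 of TAT-2-1 had as few as 10 reads in a CMC library.

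In the T loop, T55, the known target of TRUB1 and PUS10, was called in both TAT entries and both well-covered AAT entries. In both AAT entries no BEU and CMC pair was below the ceiling at T55, and neither entered the fit below it. The AAT calls therefore rest on rates that the ceiling can lower. At T55 of TAT-2-1 the BEU stop rate was 1.12% to 2.05%. The CMC stop rates were 46.1%, 40.9% and 48.1% in young and 48.9%, 43.9% and 45.4% in old cells, and these ranges overlapped. The rise was 43.3 ± 3.82 points in young and 44.5 ± 2.97 points in old cells (n = 3, SD). T55 of TAT-1-1 rose by 48.3 ± 5.29 and 55.4 ± 5.93 points. The 151 other tRNAs tested at T55, at the ceiling or not, had a median of 34.5 points in young and 39.98 points in old cells. Both TAT entries, which stayed below the ceiling, lay above that median at each age. A rise at the ceiling can be misrecorded, and the ranking was not repeated below it. AAT-1-1 and AAT-3-1 lay below the median, with 100 and 99 of the 151 above them in young cells and 85 above each in old cells. Their young means include the second pair, whose CMC library was at the ceiling at T55. Without that pair they rose by 36.6 and 37.4 points in young cells, and the ranking was not repeated without it.

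T55 of AAT-1-1 was measured only in CMC libraries. Its CMC stop rates were 37.3%, 1.18% and 36.6% in young and 35.05%, 36.9% and 30.97% in old cells. The value of 1.18% belongs to the young CMC library whose coverage there was 7987 reads, at the ceiling, as were all 6 BEU libraries. The mean rise of 24.7 ± 20.6 points in young cells therefore includes a library that hardly recorded the stop, against rises of 34.7, 36.7 and 30.6 points in the old pairs. T55 of AAT-3-1 rose by 25.3 ± 21.1 points in young and 34.8 ± 3.03 points in old cells. Without either of the other young pairs, the call in young cells was lost in both entries, at an adjusted p of 0.0844 in AAT-1-1 and 0.0608 in AAT-3-1 without the first and 0.0743 and 0.0539 without the third. AAT-2-1, the entry with 2 base differences that stayed below the ceiling, had rises of 25.2 ± 13.9 and 38.1 ± 17.96 points at T55 on 11 to 115 CMC reads, untested at the minimum of 20. There, too, the floor of 1 stop read can raise rates in the libraries with the fewest reads.

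T54, the other T-loop base that PUS10 is known to modify, was called in the TAT tRNA and not in the AAT tRNA. TAT-2-1 had CMC stop rates of 24.7%, 18.2% and 19.7% in young and 12.04%, 22.5% and 19.1% in old cells, against 1.36% to 3.29% with BEU. Its rise was 18.6 ± 4.30 points in young and 16.02 ± 5.23 points in old cells (n = 3, SD), with edgeR's adjusted p of 1.45e-05 and 2.10e-05. TAT-1-1, which differs at 1 row, rose by 7.95 ± 3.23 and 10.3 ± 3.34 points, and passed the minimum rise of 10 points in old cells alone. In young cells edgeR's adjusted p was 0.000159, so only that minimum kept the site from being called. The call in old cells was lost with 1 subtracted from each count, at 9.04 points, and without the first old pair, at 8.73 points. The change T60G between the 2 entries lies 5 rows 3′ of T54. At T54 of AAT-1-1, with 7 libraries at the ceiling, the rise was 2.16 ± 1.88 points in young and 4.02 ± 0.341 points in old cells, and in AAT-3-1 it was 2.21 ± 1.93 and 4.199 ± 0.355 points. The other 144 tRNAs tested at T54, at the ceiling or not, had medians of 4.42 and 6.01 points. Of them, 27 in young and 31 in old cells stood above TAT-2-1, and the ranking at T54 was not repeated below the ceiling.

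T47 and T48 of TAT-1-1, in the variable region between the anticodon and T stems, were called in old cells alone. TAT-2-1 has the same bases there and a higher highest coverage in each library, and it was called at neither T47 nor T48 at either age. In TAT-1-1 neither site entered the test at a coverage minimum of 50. At T48 the CMC stop rates were 19.7%, 19.9% and 15.2% in young and 19.6%, 21.4% and 23.9% in old cells. The BEU stop rates were 13.3%, 15.7% and 11.6% in young and 7.68%, 6.77% and 11.7% in old cells. The rise was 4.70 ± 1.53 points in young cells and 12.9 ± 1.49 points in old cells, and this difference of 8.25 ± 1.23 points (SE) was made up of -4.84 points in BEU and 3.41 points in CMC libraries. T47 rose by 6.12 ± 4.85 points in young and 13.3 ± 8.78 points in old cells, and lost the call in old cells without the second old pair, with a rise of 8.41 points and an adjusted p of 0.0773. Neither site reached a mean rise of 10 points over the 6 pairs, so their age difference was not tested. The 1 called base other than T was G46 of AAT-1-1, with rises of 24.9 ± 4.75 and 22.4 ± 3.27 points. Its BEU libraries were at the ceiling, 5 of the 6 between 0.188% and 0.338%, so the BEU rate was hardly measured. In AAT-3-1 the same base stopped 31.8% and 32.1% of reads in the 2 old BEU libraries with the lowest depth, above the 24.4% to 26.7% of the old CMC libraries.

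Between the ages, the CMC-dependent rise was tested at the 10 tRNA-Ile sites with a 6-pair mean rise of 10 points or more, and none was called. Of all 439 such T sites in the series, 0 were called (0%) by edgeR, and 22 (5.01%) had an unadjusted p under 0.05, none of them in tRNA-Ile. Among sites below the ceiling, 3 of 215 (1.4%) were called, none in tRNA-Ile. The rise was higher in old cells at 8 of the 10 sites, with a median difference of 2.49 points, beside 1.39 points over the 439. Without the second young pair, whose CMC library was at the ceiling at T55 of the AAT tRNA, the rise was higher in old cells at 5 of the 10 sites with a median difference of -0.23 points, beside -0.28 points over all sites then in the test. The differences at T55 of AAT-1-1, AAT-3-1 and TAT-2-1 changed sign there, to -2.61, -2.69 and -0.95 points. T39 of TAT-2-1 had the lowest value, -16.4 ± 3.13 points (SE), with young pairs at 49.6, 42.4 and 50.6 points and old pairs at 30.6, 34.4 and 28.4. Its age difference had an unadjusted p of 0.277 and an adjusted p of 0.999 by edgeR on the log odds of stopping, and 0.700 below the ceiling. TAT-1-1 at T39 differed in the same direction, by -7.40 ± 6.42 points (SE), with overlap between the ages and too few reads for the test. T27 of AAT-1-1 differed by 4.65 ± 1.37 points, with no overlap between the ages, but T27 of AAT-3-1 by 3.48 ± 2.27 points with overlap. Non-overlapping pairs were seen at 2 of the 10 sites, 20%, beside 13% of the 439. T55 of TAT-1-1 was higher in old cells by 7.10 ± 4.59 points and T55 of TAT-2-1 by 1.17 ± 2.79 points. At T54 of TAT-2-1 the difference was -2.57 ± 3.91 points, within its error.

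**Figure D3:**
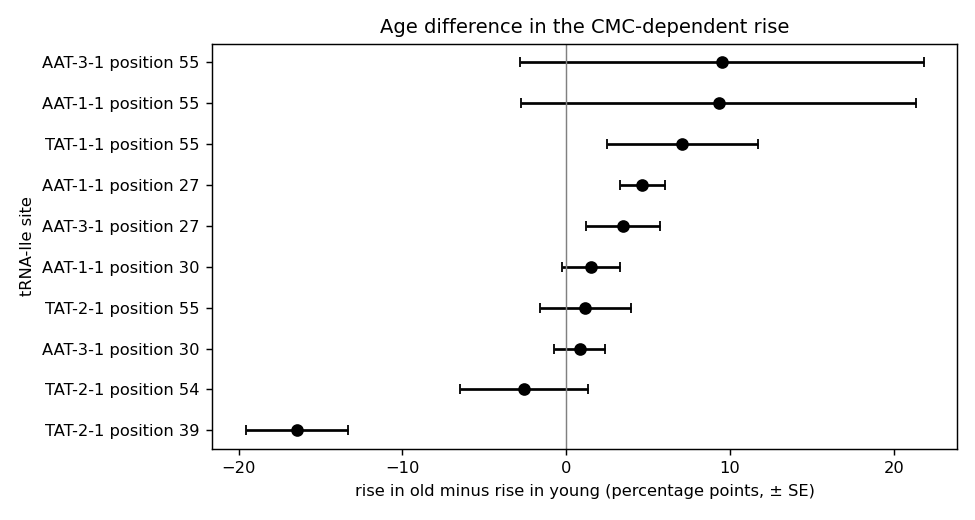
Rise in old cells minus rise in young cells (percentage points, ± SE from 3 pairs per age) at the 10 tRNA-Ile sites in the age test. T39 of TAT-2-1 lies at -16.4 points, the T55 sites of the AAT tRNA have SEs of about 12 points, and none of the sites was called by edgeR.

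The BEU libraries record stops that need no CMC. The largest BEU stops of tRNA-Ile lay in the D loop, named for its dihydrouridines, and at G26, the known site of dimethylation by TRMT1. At position 20a, a T in both tRNAs, AAT-1-1 stopped 74.0%, 76.0% and 72.6% of reads in young and 63.8%, 77.1% and 77.7% in old BEU libraries. The library at 63.8% was at the ceiling. At 20a of TAT-2-1 the rates were 64.3%, 69.4% and 74.9% in young and 77.2%, 84.0% and 80.2% in old cells, without overlap. G26 of AAT-3-1 stopped 91.6 ± 0.207% of reads in young and 89.1 ± 0.816% in old cells. The next rows 5′ of it are those not analysed. G26 of TAT-2-1 stopped 44.4 ± 2.98% and 37.4 ± 3.87% of reads (SD, n = 3 each).

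BEU stop rates were compared between the ages at 55 tRNA-Ile bases with a mean BEU rate of at least 5%, and none was called, as at 0 of 2031 bases in the series (0%). At an unadjusted p under 0.05 there were 7 of the 55, 12.7%, and 166 of the 2031, 8.17%. DESeq2 called 2 of the 55 (0.985% of all bases), both at T34 of the TAT tRNA, and limma none (0%). The lowest differences were at T34 of the TAT tRNA. At T34 of TAT-2-1 the BEU stop rate was 19.2 ± 1.21% in young and 6.98 ± 1.07% in old cells (n = 3, SD), a difference of -12.3 ± 0.932 points (SE) with an adjusted p of 0.118 by edgeR. T34 of TAT-1-1 had BEU rates of 13.3%, 15.2% and 10.4% in young and 3.82%, 3.54% and 4.58% in old cells, with the same adjusted p of 0.118. Each old library lay below each young one in both entries. BEU coverage at T34 of TAT-2-1 was 606, 362 and 1093 reads in young and 1588, 372 and 305 reads in old cells, so depth overlapped between the ages. The CMC rates at T34 of TAT-2-1, 60.4 ± 8.72% in young and 65.8 ± 11.6% in old cells, overlapped between the ages.

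Fitted on the 1734 bases below the ceiling alone, 3 of 47 tRNA-Ile bases passed the BEU age test, 6.38%, beside 1.61% of the 1734. These were T34 of TAT-2-1 (adjusted p = 0.000808), T34 of TAT-1-1 (0.00213) and G46 of TAT-1-1 (0.0153), which share reads between the entries. Their stop rates are the same in both fits, and only the set of bases fitted with them differs. All 3 were lower in old cells, as were 27 of the 28 bases called in the series (1.56% of the 1734 lower and 0.0577% higher). G46, a base that can carry 7-methylguanosine in tRNA, stopped 16.2%, 18.5% and 16.5% of reads in young and 8.18%, 10.0% and 11.3% in old BEU libraries of TAT-1-1. In TAT-2-1 it stopped 21.7 ± 2.50% and 15.8 ± 3.40%, which was not called. With limma on the same bases none of the 3 was called, with an adjusted p of 0.0595 at T34 of TAT-2-1 and 0.145 at G46 of TAT-1-1. Without 1 of the libraries in turn, 2 to 4 tRNA-Ile bases were called below the ceiling, T34 of both TAT entries each time.

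**Figure D4:**
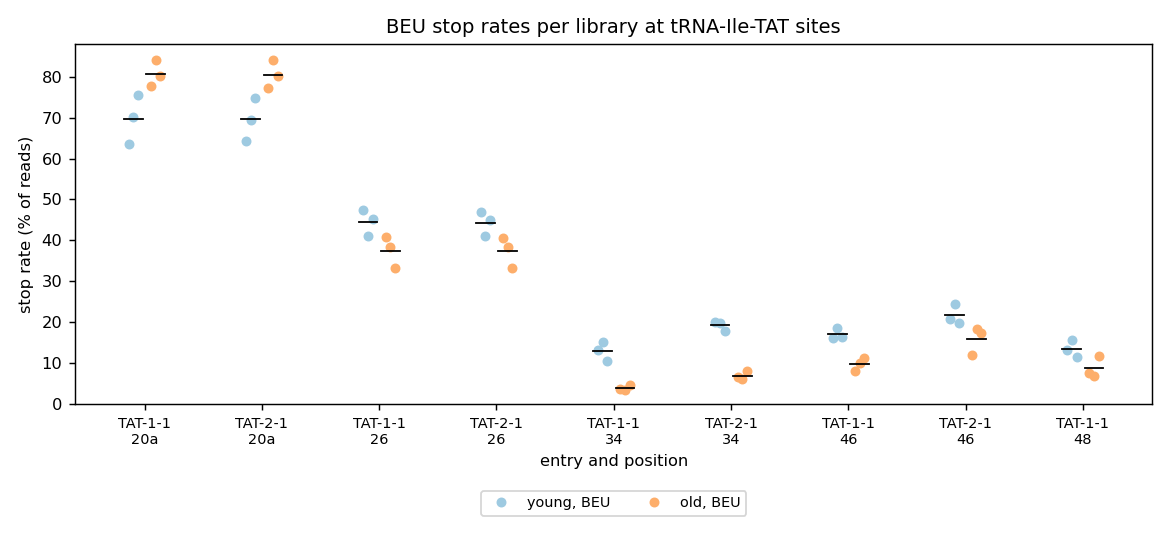
BEU stop rate (percent of reads) of each library at 9 bases of the TAT tRNA, by entry and position. Points are single libraries, black lines are means of 3. The old libraries lie below the young ones at T34, G46 and G26 and above them at 20a, and the ages overlap at T48 of TAT-1-1.

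At 20a of the TAT tRNA the BEU rate differed in the other direction, by 10.9 ± 3.62 points (SE) in TAT-2-1 and 10.9 ± 3.92 points in TAT-1-1, with edgeR's adjusted p of 0.507 and 0.517 over all bases and 0.203 and 0.213 below the ceiling. G26 differed by -6.93 ± 2.82 points in TAT-2-1 and by -7.17 ± 2.95 points in TAT-1-1, with an adjusted p of 0.601 over all bases. A49 of AAT-2-1 and T16 of AAT-1-1 were higher in old cells by 8.77 ± 4.24 and 4.82 ± 2.40 points, with overlap between the ages, and were not called. The highest difference of all 55 bases, 19.04 ± 10.9 points at G46 of AAT-3-1, came with 4 BEU libraries that stopped 6.70% or fewer at the ceiling. BEU rates did not overlap between the ages at 12 of the 55 bases, 21.8%, beside 18.2% of the 2031.

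The abundance of each tRNA was taken from its highest coverage in the 6 BEU libraries, in counts scaled to library size with TMM factors (CPM), and no tRNA-Ile entry was called between the ages, as was none of 213 tRNAs (0%), with 12 (5.63%) at an unadjusted p under 0.05. The level of AAT-1-1 and AAT-3-1 was not measured, since their highest coverage stood between 7994 and 8009 reads in every BEU library. AAT-2-1 had 409 ± 36.2 CPM in young and 283 ± 21.1 in old cells (n = 3, SD), a log2 change of -0.54 with an unadjusted p of 0.00942 and an adjusted p of 0.501 by edgeR. AAT-4-1, whose highest coverage was within 2 reads of that of AAT-2-1 in each library, gave -0.55. TAT-2-1 had 2941 ± 267 and 2644 ± 452 CPM, a log2 change of -0.15, TAT-1-1 changed by -0.13 and TAT-3-1 by -0.07, none past the threshold. The scaling includes tRNAs at the ceiling. With only tRNAs below the ceiling in the fit, AAT-2-1 changed by -0.47 (edgeR's adjusted p = 0.222) and AAT-4-1 by -0.48. In that fit TAT-2-1 changed by -0.09, TAT-1-1 by -0.07 and TAT-3-1 by -0.03. Fewer cells of a type and less tRNA per cell cannot be told apart in these libraries.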

How the data were processed

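There were 6 deposited tables, 1 for each age and replicate number, with a BEU and a CMC library in each. Per the file headers a row holds coverage (a count of reads), stop reads (a count) and the stop rate (a percent, 100 times their ratio); no count lies below 1. Tools and build, per the submitters' processing notes, were Bowtie2 2.3.5, Bowtie and mm10, with no roles given. How stops were called is not given in these sources. The deposited counts were fitted in R 4.3.3 with edgeR 4.0.16 (quasi-likelihood), stops against read-through, each library with its own coefficient and each group with its own log odds, without a dispersion trend and with equal library sizes. The age difference was the interaction. BEU stops used the 6 BEU libraries, with coverage of at least 20 in those. All fits ran on the 213 distinct entries. Alternatives used DESeq2 1.42.0 and limma 3.58.1 (log2 odds, pseudocount 0.5), coverage minimums of 50, 10 and 1, 1 subtracted from each count, all entries, sites below the ceiling, the replicate block and each replicate left out. Depth, the highest coverage of each tRNA summed, was 533736 to 1061426 reads in BEU and 201980 to 767650 in CMC libraries. Reads carry no molecular identifiers and are not independent molecules. The sites named have a 6-pair mean rise of at least 10 points or a call; also named are T at 27, 28, 34, 36, 38, 39, 54 and 55, the base at 34 and 37, the 5 lowest and 5 highest BEU differences and the abundance of every entry. Sites under 20 reads are given in part. The sequence of the AAT entries is not reported here. The members, lists and rules were chosen with earlier results of these data known. The scripts were tested on simulated data.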

Additional observations from a re-analysis of the deposited data

How the results depend on the processing

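For T sites, 10 in young and 13 in old cells became 16 and 22 with no coverage minimum, 37 and 40 with all entries separately, 5 and 8 below the ceiling, and 17 and 20 with no minimum rise. For A, C and G the 1 site at each age became 2 and 2 with a minimum of 10, 2 and 10 with no minimum, 8 and 8 with all entries, 0 and 0 below the ceiling, and 7 and 27 with no minimum rise; DESeq2 gave 2 in young cells. Leaving out 1 replicate gave 0 to 1 at each age there. BEU bases called between the ages, 0 in the edgeR fit, were 2 with DESeq2 and 3 below the ceiling; the alternatives below the ceiling beyond that fit were chosen after seeing the data and gave 3 with the replicate block and 2 to 4 with 1 library left out. Whether the replicate numbers pair the libraries was not settled. Correlations of deviations of BEU with CMC libraries of one number were -0.14 to 0.04, and of young with old BEU libraries -0.63 to 0.59. They were taken over all tested sites, with those at the ceiling included. With the replicate block, 10 and 13 T sites and 0 age differences were called. No age difference in the rise or in abundance was called in tRNA-Ile under any alternative run. Coverage limits the TAT sites 5′ of position 39 in CMC libraries, and the ceiling limits the BEU rates of AAT-1-1 and AAT-3-1.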
